A study of Rattus norvegicus with 8 samples.

Results

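Regions listed for 6 metabolic genes were examined: Acot12, Elovl2 and Cyp7b1, which act on lipids, Aldh1b1, which acts on aldehydes, Mpst, which acts on a sulfur compound, and Amdhd1, an enzyme of histidine degradation that the other headings do not cover. They are 6 of the 246 regions that the study lists as highly methylated in DMAV-induced rat urothelial carcinomas (UCs), and each was taken with all CpGs up to 1 kb on either side. Since that list was drawn up from the contrast of UCs with controls in these same samples, the differences between the groups at the 6 genes are given as description, without a test. The 5 UCs came from male F344/DuCrj rats that drank water with 200 ppm DMAV (dimethylarsinic acid) for 104 weeks, and the 3 controls were bladders of F344/DuCrj rats given 0 ppm for the same time. All rats were 10 weeks old at the start. The UCs were macroscopic tumours without histological examination, and the sources used here do not say whether they came from 5 different animals. The controls are bladder tissue in the methods of the study and urothelium in the sample labels. Methylation was measured by reduced representation bisulfite sequencing (RRBS), in which restriction fragments are sequenced after bisulfite has turned unmethylated C, but not methylated C, into a base read as T. The methylation level of a CpG or a region is the C calls as a percentage of all calls on it.

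DNA methylation is the addition of a methyl group to cytosine, in mammals mainly where a G follows it (a CpG). Promoters rich in CpGs are usually unmethylated in normal tissue, and methylation gained there in tumours often accompanies silencing of the gene. Acot12 encodes a cytosolic thioesterase that splits acetyl-CoA into acetate and coenzyme A. Elovl2 encodes an elongase of the endoplasmic reticulum that lengthens polyunsaturated fatty acids, and methylation near the human gene is known to rise with age. Cyp7b1 encodes a cytochrome P450 that hydroxylates oxysterols in the alternative route of bile acid synthesis. Aldh1b1 encodes a mitochondrial aldehyde dehydrogenase that oxidises acetaldehyde and other aldehydes. Mpst encodes mercaptopyruvate sulfurtransferase, which releases the sulfur of mercaptopyruvate and is a source of hydrogen sulfide. Gene expression was not analysed here.

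Promoter sequences of 4 of the 6 genes are shown, and measured CpGs lie in each of them. They run 5′ to 3′ from 250 bases before to 50 bases after the gene start of RefSeq (build GRCr8, plus strand). Capitals mark each CpG that had calls in all 8 samples, and the position of a sequence on rn6 was found by matching the spacing of its CpGs to the CpG positions in the deposited data. The sequence of Acot12 matched at chr2:20857178-20857477 (17 of its 20 CpGs), and the listed region begins at base 291 of its 300 bases, at +40 from the gene start. That of Aldh1b1 matched at chr5:61382101-61382400 (10 of 12 CpGs), and its listed region runs from -4 to +39. The Elovl2 sequence matched at chr17:21381981-21382280 with 12 of its 56 CpGs, all at its 5′ end, and the listed region lies downstream of it, from +178 to +275. The Mpst sequence matched at chr7:119623706-119624005 with 8 of 14 CpGs, which puts the listed Mpst region 2604 bp downstream of this start. Amdhd1 and Cyp7b1 had no entry among the promoter sequences used and are named only.
Acot12: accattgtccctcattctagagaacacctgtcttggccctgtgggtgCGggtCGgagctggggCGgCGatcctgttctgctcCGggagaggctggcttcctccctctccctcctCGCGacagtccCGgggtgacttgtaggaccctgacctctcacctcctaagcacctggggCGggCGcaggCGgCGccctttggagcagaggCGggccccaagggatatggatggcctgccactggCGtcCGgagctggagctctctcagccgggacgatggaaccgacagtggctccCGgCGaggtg
Aldh1b1: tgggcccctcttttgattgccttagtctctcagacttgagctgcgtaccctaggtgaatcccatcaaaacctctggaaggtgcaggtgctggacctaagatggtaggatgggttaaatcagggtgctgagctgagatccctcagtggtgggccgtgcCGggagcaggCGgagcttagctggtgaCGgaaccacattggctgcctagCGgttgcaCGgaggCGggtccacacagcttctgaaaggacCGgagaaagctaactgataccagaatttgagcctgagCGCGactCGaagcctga
Elovl2: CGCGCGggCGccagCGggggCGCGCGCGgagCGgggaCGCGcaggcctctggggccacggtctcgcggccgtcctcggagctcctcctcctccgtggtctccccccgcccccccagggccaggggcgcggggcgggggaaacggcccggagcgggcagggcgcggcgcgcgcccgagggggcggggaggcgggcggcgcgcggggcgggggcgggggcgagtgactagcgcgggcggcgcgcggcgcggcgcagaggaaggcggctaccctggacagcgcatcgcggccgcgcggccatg
Mpst: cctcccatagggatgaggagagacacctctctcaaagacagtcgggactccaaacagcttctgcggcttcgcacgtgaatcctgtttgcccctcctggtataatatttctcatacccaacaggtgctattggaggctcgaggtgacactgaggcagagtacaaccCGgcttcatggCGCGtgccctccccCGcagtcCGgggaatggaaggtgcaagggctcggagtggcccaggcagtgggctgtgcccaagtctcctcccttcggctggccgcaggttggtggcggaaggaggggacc

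Of the 246 listed regions, 243 begin on a CpG of the deposited data and 240 end just before one. In the RRBS libraries, MspI cuts at CCGG and TaqI at TCGA, and these motifs, which read the same on both strands and do not overlap each other, are held by 51.4% and 23.0% of the 33469 promoter sequences of the table. The listed region of Aldh1b1 starts inside a CCGG and ends inside a TCGA, just before its CpG, in the sequence above. That of Acot12 also starts inside a CCGG. The ends of the other listed regions lie outside the printed sequences and were not checked for these motifs. The 4 sequences hold 20, 12, 56 and 14 CpGs in the order shown, and the median over all promoter sequences was 7 (quartiles 3 and 19).

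Each sample had 51434938 to 73836223 calls on 2526077 to 2821347 CpGs, with at least 3 reads on each CpG and a median of 14 to 18. The UCs were not alike. Over 235168 tiles of 1 kb, UC 1 and UC 2 differed by 6.40 points (root mean square) and UC 4 and UC 5 by 6.49 points, less than any pair of controls (7.11 to 7.46 points), whereas the other pairs of UCs differed by 13.4 to 14.1 points. UC 3 was 12.4 to 13.1 points from the controls and the other UCs were 18.6 to 19.9 points from them. Some values are therefore also given without UC 3. The region differences and the promoter counts with the 2 close pairs merged are given further below. In bulk DNA, a larger share of cells with a methylated allele and a different mixture of cell types cannot be told apart. Of 35 marker genes of urothelium, smooth muscle, fibroblasts, endothelium and leukocytes, only the urothelial gene Upk3a had a promoter window that could be placed and tested. It was at 15.2% ± 3.02 (SD, n = 3) in the controls and 2.49% ± 3.08 (SD, n = 5) in the UCs. Upk3a was lower with an adjusted p of 0.0292 in the quasi-binomial model described below, which treats the UCs as independent. Its part in the results below was not tested.

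**Figure D1:**
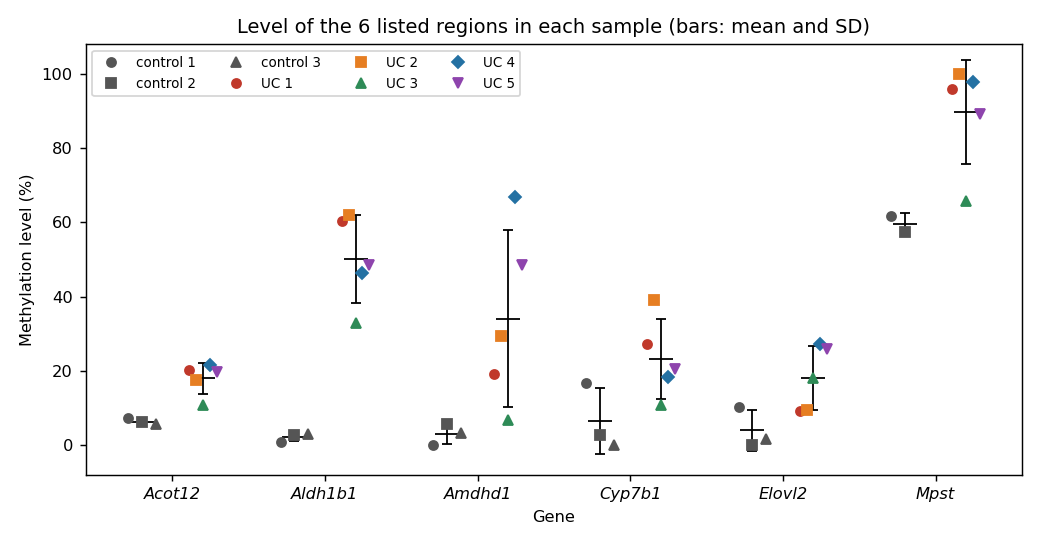
Methylation level (%) of the 6 listed regions, with 1 point per sample (grey for controls, coloured for UCs) and bars for the mean and SD of each group. Aldh1b1 lies at 0.952% to 2.94% in the controls and 32.9% to 62.0% in the UCs, Mpst has no value in control 3, and in Cyp7b1 and Elovl2 the groups overlap.

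Aldh1b1 showed the widest gap of the 6. Its region (chr5:61382347-61382390, 44 bp, 3 CpGs) was at 0.952%, 2.63% and 2.94% in controls 1, 2 and 3, and at 60.5%, 62.0%, 32.9%, 46.3% and 48.5% in UCs 1 to 5. All UCs lay far above all controls, with the pair UC 1 and UC 2 highest and UC 3 lowest. The mean was 2.18% ± 1.07 (SD, n = 3) in the controls and 50.0% ± 11.9 (SD, n = 5) in the UCs, a difference of 47.9 points, which ranked 14 among the 246 listed regions. Without UC 3 the difference was 52.1 points. The region rested on 38 to 136 calls per sample, so that the 95% Wilson interval of UC 1 ran from 45.6% to 73.6% and that of control 2 from 0.466% to 13.5%. These intervals cover counting error only, and neighbouring CpGs share reads.

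The gain around Aldh1b1 extended beyond the listed fragment on both sides. Its 23 flanking CpGs were at 2.50% to 3.28% in the controls, at 42.5% and 43.1% in UC 1 and UC 2, at 12.0% in UC 3, and at 21.9% and 21.7% in UC 4 and UC 5. The groups did not overlap (2.98% ± 0.425 against 28.2% ± 13.9, a difference of 25.3 points), and the UCs fell into the same order of pairs as in the region, with UC 3 lowest. CpGs with all UCs above all controls were found from 62 bases before to 311 bases after the first base of the region.

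Some single CpGs of Aldh1b1, picked after their levels were seen, divided the UCs more sharply than the regional mean. At the CpG 79 bases upstream of the region, UC 1 and UC 2 were at 71.4% and 80.0%, while UC 3, UC 4 and UC 5 were at 13.6%, 9.68% and 4.08% and the controls at 1.75% to 5.56%. At the CpG 100 bases downstream of the first base, the level was 77.3% and 87.0% in UC 1 and UC 2 and 14.8% to 20.0% in the other UCs, against 0% in every control. These CpGs thus separated UC 1 and UC 2 from the rest of the UCs. By contrast, the CpG at the TCGA just past the end of the region was at 52.9%, 80.8%, 25.8%, 67.4% and 57.4% in UCs 1 to 5 and at 0% to 2.13% in the controls. There UC 4 and UC 5 lay between UC 1 and UC 2. At the CpG 129 bases from the first base the order was turned round, with 0% for UC 1 and UC 2, 11.1% for UC 3, 37.5% for UC 4 and 70.0% for UC 5, on 8 to 19 reads per sample.

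**Figure D2:**
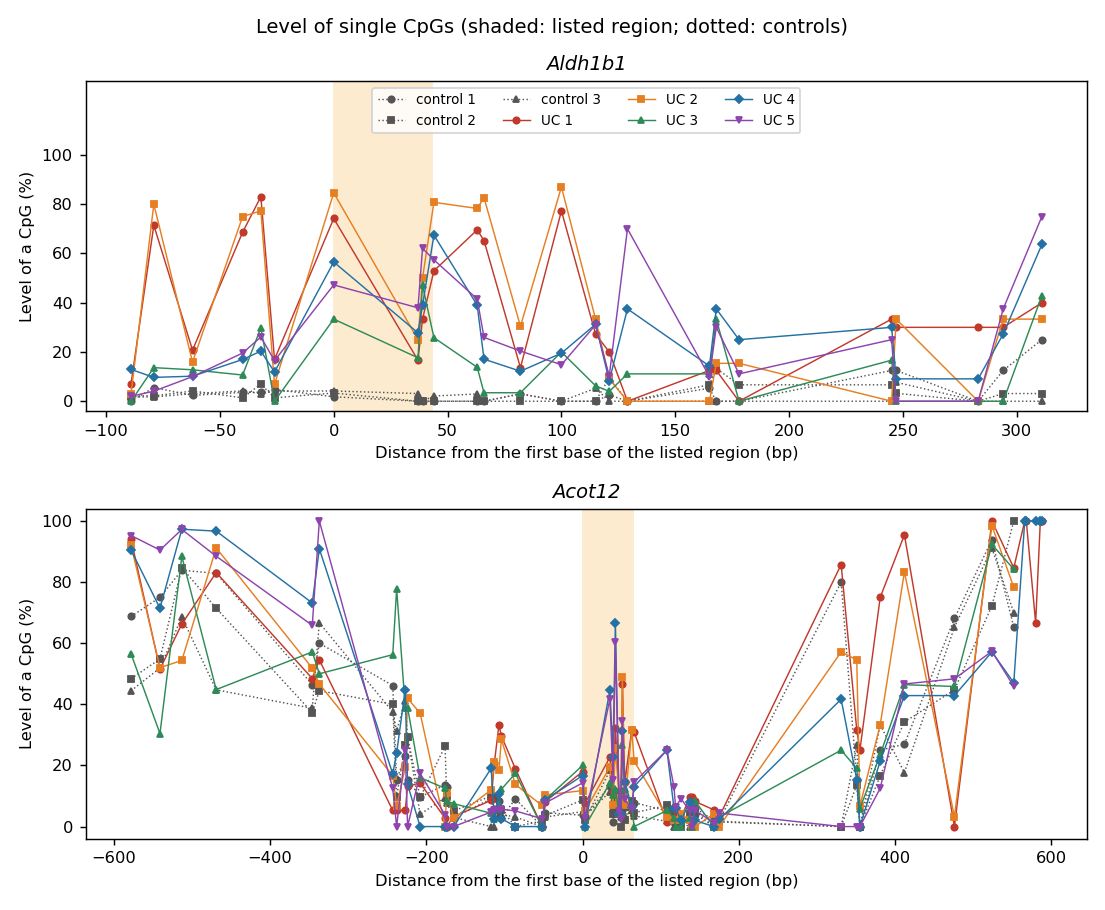
Methylation level (%) of single CpGs against the distance (bp) from the first base of the listed region, with 1 line per sample (dotted for controls), for Aldh1b1 (top) and Acot12 (bottom). In Aldh1b1, UC 1 and UC 2 lie above the other UCs at several CpGs between -79 and 100 bp, and in Acot12 levels are low around the region and mostly higher towards both ends.

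The number of calls around Aldh1b1 was lower in part of the UCs. Within 500 kb of the region (1564 CpGs), and relative to the mean of the controls, the share of a sample's calls was 0.588, 0.548, 0.782, 0.931 and 0.958 in UCs 1 to 5, against 0.944 to 1.05 in the controls. The lowest shares were those of UC 1 and UC 2, which also had the highest levels at Aldh1b1, and the part of this in the methylation level was not tested. At the 5 other genes the UCs ranged from 0.886 to 1.13 and no UC stood as far below the controls. The 5 UCs were at 0.886 to 0.908 around Cyp7b1, just under the controls (0.942 to 1.09, 290 CpGs), and at 1.02 to 1.12 around Amdhd1, where the controls were at 0.973 to 1.03.

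**Figure D3:**
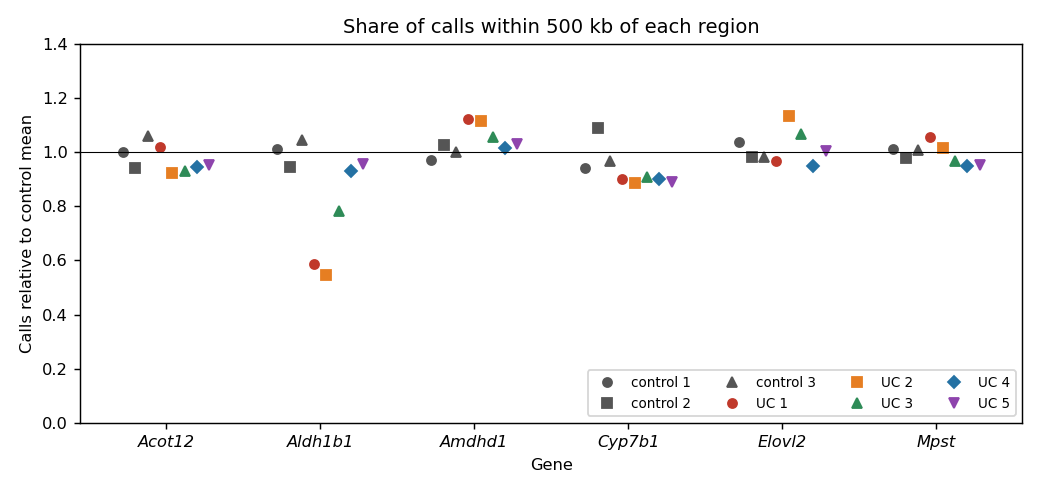
Share of a sample's calls within 500 kb of each region, relative to the mean of the 3 controls (line at 1), with 1 point per sample. Aldh1b1 is the gene at which UC 1 (0.588) and UC 2 (0.548) fall well below the controls.

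Acot12 had the smallest difference of the 6 and the deepest coverage. Its region (chr2:20857468-20857533, 66 bp, 10 CpGs, 397 to 911 calls per sample) was at 7.22%, 6.11% and 5.60% in controls 1 to 3 and at 20.3%, 17.6%, 10.7%, 21.5% and 19.6% in UCs 1 to 5. Every UC lay above every control, and UC 3 lay nearest to them, with a Wilson interval of 8.16% to 13.9% against 5.37% to 9.65% in control 1. The means were 6.31% ± 0.828 (SD, n = 3) and 17.9% ± 4.29 (SD, n = 5), a difference of 11.6 points, or 13.4 points without UC 3. This is the member nearest to the 10 points that the list required, and it ranked 217 among the 246 listed regions. Regions just outside that limit are not in the list and were not analysed here.

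Within this small mean, the CpGs of the Acot12 region behaved unequally. At the CpG 42 bases from its start the level was 66.7% and 60.3% in UC 4 and UC 5, 32.2% and 25.6% in UC 1 and UC 2, 12.2% in UC 3 and 4.04% to 11.5% in the controls. At the CpG 51 bases from the start the order was different, with 46.7% and 48.8% in UC 1 and UC 2, 26.5% to 34.6% in UC 3, UC 4 and UC 5, and 4.08% to 11.5% in the controls. At the CpG 63 bases from the start, UC 1 and UC 2 were both at 31.7%, while UC 3, UC 4 and UC 5 (5.71% to 6.82%) were among the controls (5.32% to 8.33%). Each of these values rested on 41 to 99 reads. The CpGs at 3, 47 and 49 bases differed little between the groups, by 0.0160, 0.393 and 2.45 points.

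The flanks of Acot12 were already partly methylated in the controls. Its 50 flanking CpGs were at 25.5% ± 2.90 in the controls and 30.3% ± 2.71 in the UCs, and the groups overlapped (22.7% to 28.5% against 27.0% to 34.0%). Upstream alone, the controls were at 30.2% to 38.0% and the UCs at 38.5% to 44.0%. Further downstream, 2 CpGs of the flank, picked after their levels were seen, moved in opposite directions in the same tumours. At 412 bases from the region start, UC 1 and UC 2 were at 95.5% and 83.3% and the controls at 17.6% to 34.2%. At 476 bases, UC 1 and UC 2 were at 0% and 3.28% and the controls at 44.7% to 68.1%. UC 3, UC 4 and UC 5 were at 42.9% to 46.7% and at 42.9% to 48.3% at these CpGs. UC 1 and UC 2 were thus near opposite extremes at these CpGs, while the other samples had intermediate levels at both.

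Elovl2 gave an overlapping picture in its listed region and a separated one around it. The region (chr17:21382409-21382506, 98 bp, 4 CpGs, 44 to 120 calls) was at 10.2%, 0% and 1.67% in controls 1 to 3 and at 9.09%, 9.52%, 18.2%, 27.1% and 25.9% in UCs 1 to 5. UC 1 and UC 2 lay just below control 1, and UC 4 and UC 5 were highest. The means were 3.96% ± 5.49 (SD, n = 3) and 17.9% ± 8.60 (SD, n = 5), a difference of 14.0 points, and 17.1 points without control 1. In the UCs most methylated calls of the region were on 1 CpG, 61 bases from its start, which was at 27.3%, 0% and 3.33% in the controls and at 31.8%, 33.3%, 45.5%, 75.0% and 72.4% in the UCs. At this CpG all UCs were above all controls, while the CpG at 42 bases was at 0% in all 8 samples on 11 to 30 reads.

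On the 30 flanking CpGs of Elovl2 the controls were at 6.48%, 2.92% and 3.12% and the UCs at 13.9%, 11.1%, 9.60%, 11.9% and 14.3%. The groups did not overlap, the means were 4.18% ± 2.00 and 12.2% ± 1.96, and the difference was 7.98 points. The clearest separation was at the CpG 587 bases upstream of the region, which was at 0% in all controls and at 23.5% to 41.7% in the UCs. The next CpG downstream of the Elovl2 region was at 5.45%, 5.08%, 5.56%, 17.1% and 23.2% in UCs 1 to 5 and at 4.17% to 5.06% in the controls, so that UC 4 and UC 5 were highest there as in the region. At the CpG 115 bases from the region start, UC 1 and UC 2 were at 40.3% and 35.4%, UC 3, UC 4 and UC 5 at 5.66% to 12.6%, and the controls at 1.12% to 3.23%. At that CpG UC 1 and UC 2 were the highest.

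Cyp7b1 was covered unevenly. Its region (chr2:102871141-102871335, 195 bp, 9 CpGs, 30 to 115 calls) was at 16.7%, 2.68% and 0% in controls 1 to 3 and at 27.3%, 39.1%, 10.8%, 18.3% and 20.6% in UCs 1 to 5. UC 3 lay below control 1, and the other UCs lay above all controls. The means were 6.45% ± 8.95 (SD, n = 3) and 23.2% ± 10.7 (SD, n = 5), a difference of 16.8 points, which was 19.9 points without UC 3, 21.9 points without control 1 and 12.8 points without UC 2. When each CpG was given equal weight it was 10.2 points. The value of control 1 came largely from 5 CpGs at the far end of the region with 3 reads each, and control 3 had no calls on those CpGs.

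The first CpG of the Cyp7b1 region was the only CpG of it with calls in all 8 samples, on 15 to 44 reads. It was at 6.67%, 8.33% and 0% in the controls and at 51.5%, 53.1%, 17.2%, 25.0% and 25.0% in the UCs. All UCs lay above all controls there, UC 1 and UC 2 were highest, and the difference of the means was 29.4 points. The 7 flanking CpGs, of which 6 lie upstream, were at 1.37% to 3.49% in the controls and at 16.0%, 21.4%, 5.29%, 15.2% and 12.9% in UCs 1 to 5, with UC 3 again lowest. Their means were 2.32% ± 1.08 and 14.2% ± 5.86, 11.8 points apart.

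**Figure D4:**
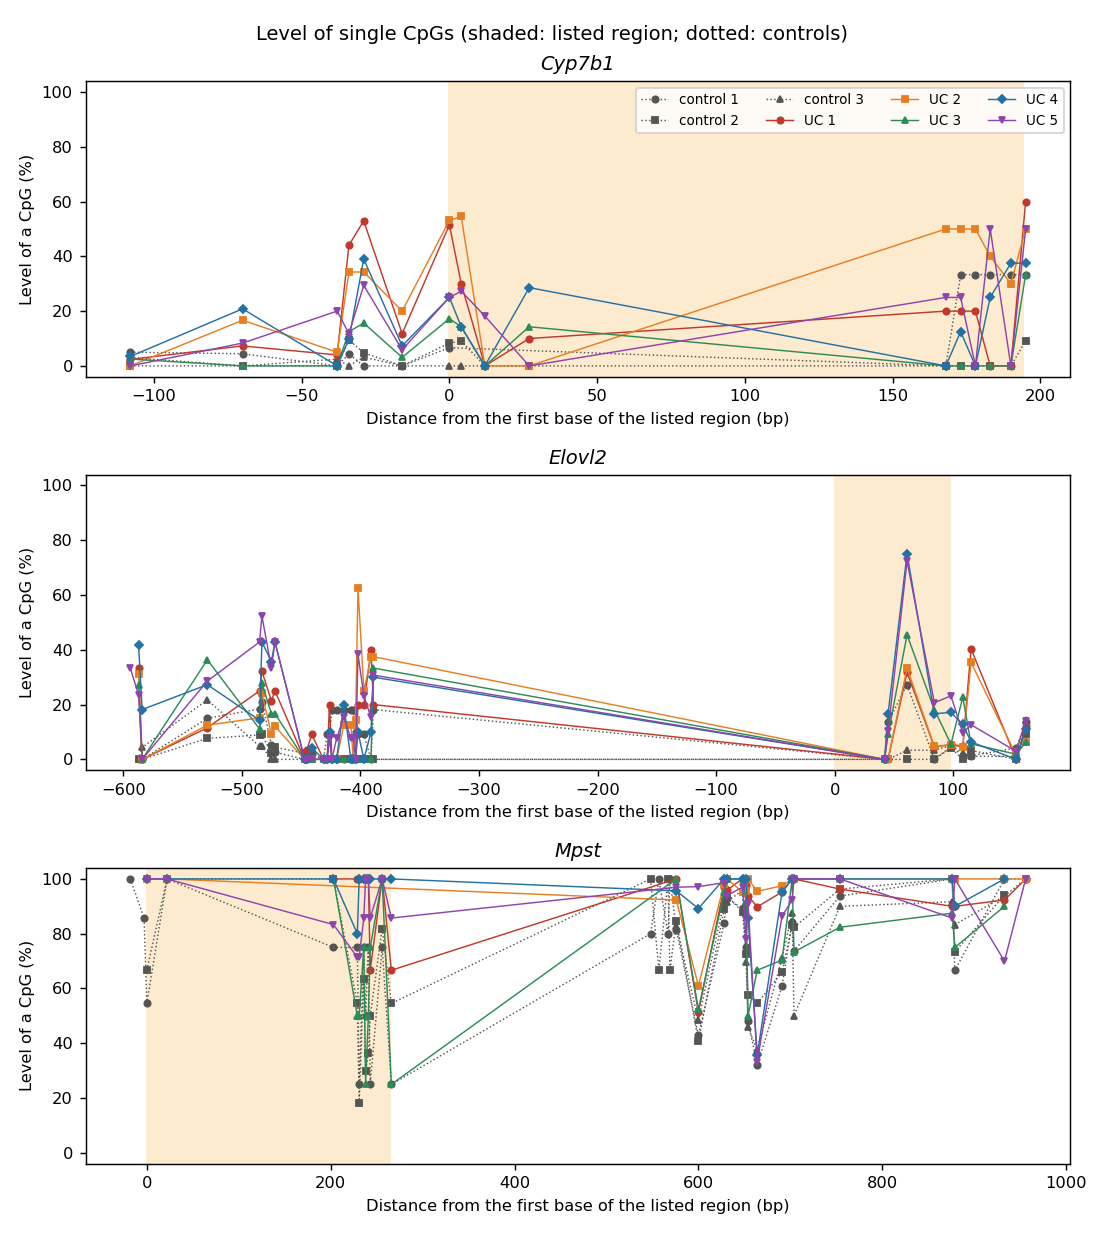
Methylation level (%) of single CpGs against the distance (bp) from the first base of the listed region, with 1 line per sample (dotted for controls), for Cyp7b1 (top), Elovl2 (middle) and Mpst (bottom). Cyp7b1 and Elovl2 lie low in the controls, whereas those of Mpst are partly to fully methylated in the controls.

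Amdhd1 was covered so thinly that its values have wide counting error. Its region (chr7:34406089-34406331, 243 bp, 6 CpGs) was at 0%, 5.56% and 3.33% in controls 1 to 3 and at 19.0%, 29.4%, 6.67%, 66.7% and 48.6% in UCs 1 to 5, on only 9 to 35 calls. Every UC lay above every control, but the Wilson interval of UC 3 (1.19% to 29.8%) held the values of controls 2 and 3, and that of control 1 at 0% reached 24.2%. The means were 2.96% ± 2.80 (SD, n = 3) and 34.1% ± 23.8 (SD, n = 5), a difference of 31.1 points. On the 3 CpGs with calls in all 8 samples, the controls had 0 methylated calls and the UCs a mean level of 32.7%. UC 4 and UC 5 were the highest at the region, as at Elovl2 and unlike at Aldh1b1 and Cyp7b1. No flanking CpG was covered upstream, and the 1 covered CpG downstream was at 0% in the controls and at 0% to 20.0% in the UCs on 3 to 8 reads.

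Mpst differed from the other 5 genes in its starting level. Its region (chr7:119626560-119626825, 266 bp, 10 CpGs) was at 61.7% and 57.3% in controls 1 and 2, had no calls in control 3, and was at 95.8%, 100%, 65.6%, 97.8% and 89.1% in UCs 1 to 5. The UCs lay above the 2 controls with a value, UC 3 only just, and UC 2 rested on 6 calls. The means were 59.5% ± 3.12 (SD, n = 2) and 89.7% ± 14.1 (SD, n = 5), a difference of 30.2 points, or 36.2 points without UC 3. No CpG of the region had calls in all 8 samples. The 3 CpGs upstream of it had 0 to 17 calls and went the other way, at 94.1% and 71.4% in controls 1 and 2 and at 75.0% and 33.3% in UC 2 and UC 4 (a difference of -28.6 points), with no calls in the other samples.

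The downstream flank of Mpst was better covered, with 252 to 535 calls and 15 CpGs with calls in all samples. It was at 72.6%, 76.6% and 73.4% in the controls and at 92.5%, 92.7%, 79.0%, 92.9% and 89.4% in UCs 1 to 5. The groups did not overlap and UC 3 again lay nearest to the controls, with means of 74.2% ± 2.12 and 89.3% ± 5.93 and a difference of 15.1 points. Over the 15 CpGs, UC 1 and UC 2 both lay above UC 4 and UC 5 at 2, and both below them at 2. Among these, 2 CpGs picked after their levels were seen showed the tumour pairs in opposite order. At 600 bases from the region start, UC 4 and UC 5 were at 89.2% and 97.2%, and the other samples, controls included, were at 40.9% to 61.0%. At 664 bases, UC 1 and UC 2 were at 89.8% and 95.5% and UC 3 at 66.7%, while UC 4 and UC 5 (35.7% and 33.3%) lay among the controls (32.1% to 54.5%).

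The Mpst start of RefSeq, 2604 bp upstream of the listed region, was unmethylated in both groups. Of the 14 CpGs of the printed sequence, the 8 with calls in any sample were at 0.330% ± 0.572 (SD, n = 3) in the controls and 0.264% ± 0.374 (SD, n = 5) in the UCs, on 40 to 204 calls. No sample was above 0.990%. The high levels of the listed region therefore lie away from the start that RefSeq gives for this gene in GRCr8, and an annotation of rn6 was not used here.

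Over all 6 genes, 138 of the 180 CpGs of the regions and flanks had at least 3 reads in all 8 samples. Of these, 42 (30.4%) were higher in every UC than in every control, 0 were lower in every UC, and 96 overlapped. Over all 2052737 CpGs of the same coverage, 8.05% were higher in every UC and 6.07% were lower, and since the genes were chosen by this contrast nothing is read from the difference. Where each sample had at least 10 reads on a CpG, 35 of 97 CpGs were higher and 0 lower in every UC, and 9.26% and 6.29% of the 1203632 CpGs of that coverage. In the regions alone 12 of 21 CpGs were higher in every UC, and in the flanks 30 of 117. By gene, the higher CpGs of regions and flanks were 13 of 25 in Aldh1b1, 4 of 7 in Cyp7b1, 5 of 15 in Mpst, 10 of 32 in Elovl2, 1 of 4 in Amdhd1 and 9 of 55 in Acot12. Of the 6 regions as a whole, those of Aldh1b1, Acot12, Amdhd1 and Mpst did not overlap between the groups. Among the 202 listed regions with at least 3 CpGs in every sample, 93.1% did not overlap, and the median difference over these was 17.6 points.

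The division of the UCs into pairs was visible at each gene where the differences below could be computed. At Amdhd1 no CpG had at least 10 reads in every sample, so they could not be computed there. Over 97 CpGs on which no sample had under 10 reads, none of them at Amdhd1, the mean absolute difference was 6.23 points between UC 1 and UC 2, 6.01 points between UC 4 and UC 5, and 15.7 to 17.1 points between a member of one pair and a member of the other. Pairs of controls differed by 5.01 to 5.08 points. UC 3 differed from the controls by 9.28 to 9.64 points and from the other UCs by 12.4 to 16.7 points. Both UC 1 and UC 2 lay above both UC 4 and UC 5 at 37 of the 138 CpGs, and below both at 31. In Aldh1b1 UC 1 and UC 2 were the higher pair at 9 CpGs and the lower at 4, and in Elovl2 they were higher at 2 and lower at 10. In Acot12 they were higher at 21 and lower at 13, and in Mpst at 2 each. In Cyp7b1 they were higher at 3 and lower at 0, and in Amdhd1 higher at 0 and lower at 2. These counts were not tested, since neighbouring CpGs share reads and the 2 UCs of a pair may not be independent. The same counts were not made over all CpGs of the data, so nothing is read from them about these genes.

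For each gene, the listed regions with the most similar levels over the 8 samples were found by the root mean square difference. Aldh1b1 was nearest to Trank1 (5.69 points) and Fstl1 (6.22 points), and Acot12 to Foxe3 (3.12 points) and Ctnna2 (3.30 points). The lipid genes Cyp7b1 and Elovl2 were nearest to Phox2a (5.03 points) and Galnt17 (5.17 points), and to Khdrbs3 (4.09 points) and Nkx6-1 (4.25 points). Amdhd1 was nearest to Kcne5 (10.3 points) and Pde8a (10.6 points), and Mpst could not be compared without a value in control 3. The 6 genes themselves were left out of this search. Compared separately, the nearest of them lay 6.89 to 22.0 points away, in each case further than the regions named. The other listed regions are far more numerous than the 6 genes, so nothing is read from this.

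To place the 6 genes among their metabolic relatives, the promoters of 85 related genes were looked up, from the families of acyl-CoA thioesterases, aldehyde dehydrogenases, fatty acid elongation and desaturation, oxysterol and bile acid synthesis, histidine degradation, and sulfur amino acid and hydrogen sulfide metabolism. None of the 85 is among the 246 listed genes. The listed genes are few beside the 27457 genes with a promoter sequence, so nothing is read from this. A promoter window ran from 500 bp before to 100 bp after a gene start, and 29 windows could be placed and tested, with 0 of the 4 histidine genes among them. All 29 were below 10% in the mean of the controls, and the median difference was 0.0550 points, against 0.0612 points over all 8428 windows tested. With a quasi-binomial model moderated by limma, an adjusted p under 0.05 and a difference over 10 points, 0 of the 29 passed in either direction. Over all windows 217 (2.57%) were higher and 46 (0.546%) lower. These p-values set the difference between the groups against the spread of samples within them, and treat the UCs as independent. With the 2 close pairs of UCs merged, the counts over all windows fell to 88 and 21. At an unadjusted p under 0.05 there were 6 of the 29, beside 20.1% of all windows. With limma on M values 1 of the 29, Acot1, was called higher, beside 2.57% of all windows called higher and 0.510% lower. An F-test on the percentages called 0 of the 29, beside 0.356% higher and 0.237% lower of all windows. In 4 of the 29 every UC lay above every control, against 10.6% of all windows.

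The 4 windows in which the groups did not overlap, named here after their values were seen, were those of Acot1, Scd, Aldh1a2 and Elovl4. Acot1 encodes a cytosolic thioesterase of long-chain acyl-CoA, and its window was at 1.02% to 2.01% in the controls and at 20.7%, 23.2%, 4.05%, 8.58% and 5.23% in UCs 1 to 5. UC 1 and UC 2 were highest, the difference of means was 10.8 points, and the adjusted p was 0.175 (0.0258 to 0.461 over 15 alternatives). Acot3 is a close copy of Acot1, so that the placement of both is uncertain. Scd, which desaturates saturated fatty acids, was at 0.295% to 0.975% in the controls and 4.40% to 8.67% in the UCs, a difference of 5.09 points with an adjusted p of 0.00728 (0.00190 to 0.0968 over 15 alternatives). Elovl4, an elongase like Elovl2, was at 0.320% to 0.874% in the controls and at 1.81% to 4.47% in the UCs, a difference of 2.37 points with an adjusted p of 0.0212 (0.0121 to 0.218). Aldh1a2, which makes retinoic acid, was at 1.47% to 2.84% and 3.79% to 9.43%, a difference of 4.62 points with an adjusted p of 0.0413 (0.0180 to 0.220). The last 3 genes missed the limit of 10 points.

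Among the other relatives, Acot9, a mitochondrial thioesterase on the X chromosome, was at 23.3% and 27.5% in UC 4 and UC 5 and at 0% to 0.685% in all other samples. Its difference of 10.2 points had an adjusted p of 0.153, and the groups overlapped. Of the sulfur genes, Cbs, which makes cystathionine and hydrogen sulfide, was at 1.50% ± 0.243 in the controls and 2.56% ± 1.28 in the UCs (adjusted p = 0.589 in the limma-moderated model). Of the oxysterol genes, Ch25h was at 1.66% ± 0.756 and 2.19% ± 1.14 (adjusted p = 0.812 in the same limma-moderated model). The elongases and desaturases Elovl5, Fads1, Fads2 and Fads3 were at 0% to 1.11% in every sample.

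**Figure D5:**
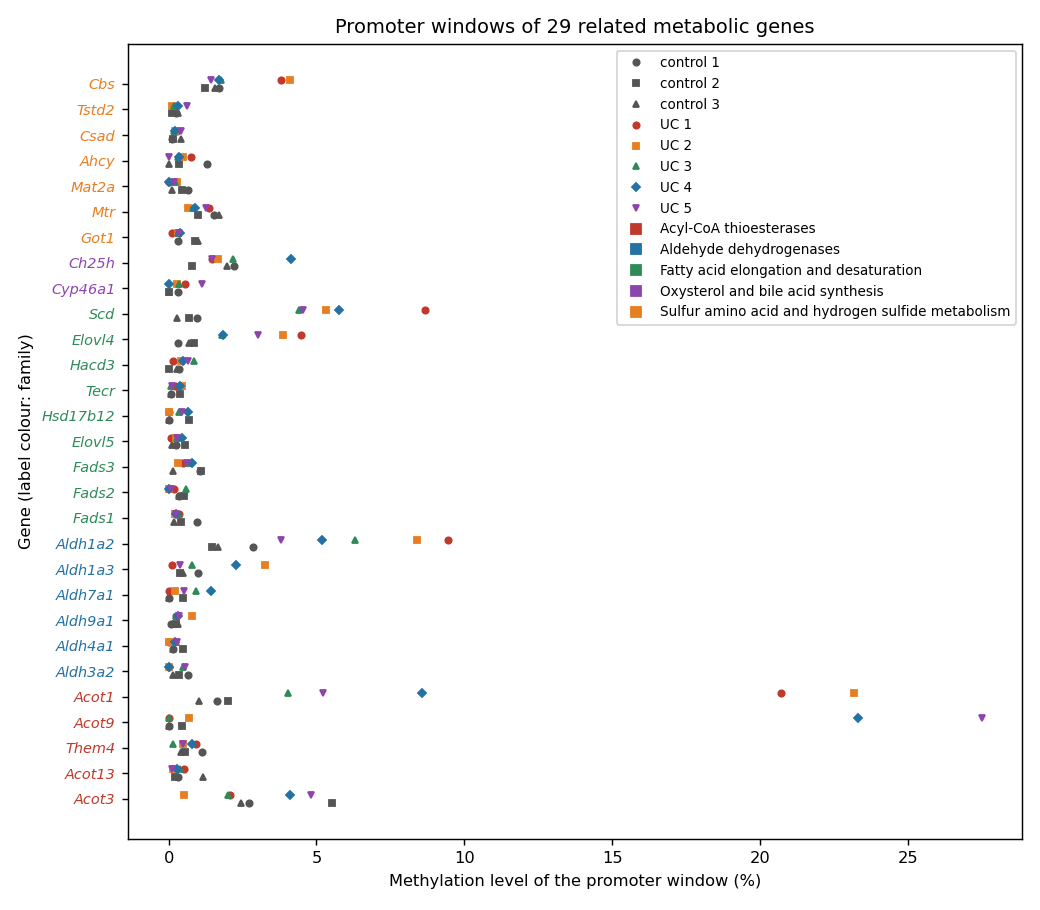
Methylation level (%) of the promoter windows of 29 related metabolic genes, with 1 point per sample (grey for controls, coloured for UCs) and gene names coloured by family. Most windows lie under 2% in all samples, and the highest points are UC 1 and UC 2 at Acot1 (20.7% and 23.2%) and UC 4 and UC 5 at Acot9 (23.3% and 27.5%).

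The same windows drawn around the placed starts of the listed genes themselves gave a further description of them. The Aldh1b1 window was at 2.50% to 2.80% in the controls and 16.0% to 53.7% in the UCs, and that of Elovl2, which holds the 25 CpGs of its upstream flank, at 2.34% to 8.14% and 10.4% to 17.2%. The Acot12 window, which takes in its partly methylated upstream DNA, was at 10.6% to 17.7% and 20.2% to 24.9%. In these 3 windows every UC lay above every control, as in 10.6% of all 8428 windows. These genes were chosen by this contrast, so nothing is read from that. The window of Mpst stayed under 0.432% in all 8 samples.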

How the data were processed

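RRBS was done on genomic DNA of 3 control bladders and 5 UCs, cut with TaqI and MspI. The authors trimmed adapters and used RRBSMAP for alignment to rn6, from which only reads with a single place were kept and duplicates sharing barcode and coordinates were dropped. They deposited, for each CpG with both strands combined, a count of C calls and a count of C and T calls, with at least 3 reads on every CpG. The deposited effective count is an expected count, corrected with opposite-strand calls, and served as an alternative denominator. The deposited ratio is a fraction of C calls over the effective count and was not used further. Groups were taken from the labels.

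Calls were summed over each listed region and over its flanks of 1 kb. Group values are means ± SD of the samples' levels, and intervals are 95% Wilson intervals. An rn6 annotation was not used here. Of 27457 genes with a RefSeq promoter sequence (GRCr8), 8626 were placed on rn6 by the spacing of their CpGs (at least 6 matching CpGs and 3 more than the next best place), 99.4% of them on the chromosome that GRCr8 gives. Of 147 placed genes of the study's list, 133 lay within 100 bp of the start the list implies. Windows with at least 3 CpGs in every sample were tested with a quasi-binomial model with dispersion moderated by limma 3.58.1 (R 4.3.3), an F-test and Benjamini-Hochberg adjustment over 8428 windows, and were called at an adjusted p under 0.05 and a difference over 10 points. The model was tested on simulated data in which the samples were drawn independently, so that test does not cover the close pairs of UCs. Python 3.11.15, numpy 2.4.6, pandas 2.3.3 and matplotlib 3.10.9 were used for sums and figures. The paper's ANOVA served as an alternative, as the F-test on percentages.

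The genes and the lists of relatives and markers were chosen with earlier results of these data known. Named are all 6 genes, for each the 2 listed regions nearest to it over the 8 samples, and relatives whose windows were called. Other relatives were named after their values were seen. Alternatives were other coverage minimums, the mean of CpG levels, pooled calls, flanks of 500 bp, other tests, a replicate block, merged pairs and each sample left out in turn. Chosen after seeing the data were the use only of CpGs covered in every sample and the addition of the CpG just past the listed end. The single CpGs described for each gene were also picked after their levels were seen.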

Additional observations from a re-analysis of the deposited data

Results flagged for a closer look

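In 24 groups of 5 UC values, the gap of the highest or lowest UC to its neighbour was compared with the range of the group, and a ratio above 0.71 was taken as far from the others. For 5 independent values chance gives about 1 such group in 20, or 1.2 here, and 2 were found. The UCs may not be independent, and groups of a gene share samples, so the 2 numbers cannot be compared. Of the relatives, only the 6 windows with an unadjusted p under 0.05 in the quasi-binomial model were examined. In the flanks of Mpst the ratio was 0.7673, with UC 3 at 79.0% and the other UCs at 89.4% to 92.5%, and the controls at 73.4% to 76.6%. In the promoter window of Got1, an aspartate aminotransferase that also acts on cysteine, the ratio was 0.7952, with UC 1 at 0.118% and the other UCs at 0.326% to 0.379%. Both Got1 levels rest on a few methylated calls among 791 to 1289.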

How the results depend on the processing

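The differences of the 6 regions kept their direction in 83 of 83 recomputations and moved by less than 1 SD in 82. The exception was Cyp7b1 on the only CpG covered in every sample, at 29.4 points, and as the mean of its CpG levels it was 10.2 points. The SD is the pooled SD within the groups, which was as wide as 19.5 points for the region of Amdhd1. Since the genes were chosen by this contrast in these samples, the kept direction is no test of it. The flank differences kept within 1 SD in 71 of 71. With each sample left out in turn, the region differences ranged from 10.7 to 13.4 points for Acot12, 44.9 to 52.1 for Aldh1b1, 23.0 to 38.0 for Amdhd1, 12.8 to 21.9 for Cyp7b1, 11.7 to 17.1 for Elovl2 and 27.6 to 36.2 for Mpst. With the 2 close pairs of UCs merged, they were 10.5 points for Acot12, 45.1 for Aldh1b1 and 24.6 for Amdhd1. For Cyp7b1, Elovl2 and Mpst they were then 15.0, 13.9 and 25.5 points. Each was smaller than the difference without merging. A minimum of 10 reads per CpG gave no value for the regions of Amdhd1 and Mpst or the flank of Amdhd1.

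Of the relatives, 1 window was called higher by limma on M values (217 higher and 43 lower over all genes) and 3 with no minimum difference, and 0 under the other alternatives. Windows called higher and lower over all genes (217 and 46) became 30 and 20 with an F-test on percentages, 499 and 115 with no minimum difference, and 88 and 21 with the close pairs merged. Without 1 sample the counts ran from 71 (without control 3) to 251 (without UC 3) higher and from 21 to 62 lower, and leaving out control 1, 2 or 3 gave 124, 78 and 71 higher and 25, 22 and 21 lower. The causes were not tested. Samples with the same replicate number did not deviate together (correlations 0.0284, -0.0459 and 0.0863), and with the replicate number as a block 16 windows were higher, 1 was lower, and 0 of the relatives were called.

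Limits are the 9 to 35 calls at Amdhd1, the missing control 3 at Mpst, and promoter windows that could be placed for only 30 of 85 relatives.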
